A study of Mus musculus with 4 samples.

Results

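The 9 genes described here are regulators and enzymes of fatty acid oxidation in the mouse intestine, out of 20812 condensed genes, each of which joins the exons of overlapping transcripts. They were chosen by name, and all 9 were found in the exon table. The regulators are *Ppara*, *Pparg* and *Ppargc1a*. The enzymes are *Cpt1a*, *Acadl*, *Acadm*, *Hadha* and *Hadhb* of mitochondria and *Ehhadh* of peroxisomes.

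The 4 libraries used here came from small intestine and colon of C57BL/6 mice aged 9 to 10 weeks, which the methods narrow to jejunum and distal colon, with 1 library per tissue in each of 2 protocols. The cDNA fragmented libraries were made from polyadenylated RNA, which was copied into full-length cDNA before it was broken. For the RNA fragmented libraries, in which RNA was broken first, the labels give ribosomal RNA-depleted RNA, whereas the methods describe polyadenylated RNA for that protocol. The paper also reports longer reads and far more uniquely mapped reads for it. Whether its description covers the RNA fragmented libraries used here was not settled. The RNA came from pieces of tissue and not from sorted cells, so fewer cells of a type and less RNA per cell cannot be told apart. With 1 library per tissue and protocol there are no replicates within a protocol. Intervals on levels, ratios and shares are at the 95% level and cover counting error only, and reads are not independent molecules.

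Long-chain fatty acids reach the mitochondrial matrix as carnitine esters and are then shortened in a cycle of dehydrogenation, hydration, a further dehydrogenation and thiolysis. Very long chains are shortened in peroxisomes first. PPARα, encoded by *Ppara*, and PPARγ, encoded by *Pparg*, are nuclear receptors that bind fatty acids and act on DNA together with a retinoid X receptor. PPARα is known as an activator of oxidation genes in liver and small intestine, and PPARγ as the regulator of fat cell formation that is also abundant in colonic epithelium. *Ppargc1a* encodes PGC-1α, a coactivator of both receptors and of mitochondrial genes.

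Uniquely placed reads numbered 22484041 in cDNA fragmented small intestine, 24798934 in cDNA fragmented colon, 2035386 in RNA fragmented small intestine and 3478387 in RNA fragmented colon. Ratios from the RNA fragmented pair are therefore less precise. The 6 enterocyte markers were higher in small intestine in both protocols and the 6 colonocyte markers were higher in colon, as the tissue labels imply. The cDNA fragmented libraries differed in sex-linked transcripts. *Xist*, transcribed from the inactive X chromosome of females, had 1757 reads in small intestine and 31 in colon, whereas 4 Y-linked genes had 19 and 3488 reads together. In the RNA fragmented pair the Y-linked genes had 361 and 793 reads and *Xist* had 9 and 5. The study describes both tissues as taken from the same animals, and the sex-linked reads of the cDNA fragmented pair go against that for these libraries. In this pair tissue and sex of the mice cannot be told apart. A single gene, *Lars2*, took 13.7% of reads in RNA fragmented small intestine and 5.36% in RNA fragmented colon, against at most 0.0397% in the cDNA fragmented libraries.

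The 3 regulators had different tissue patterns. *Pparg* was strongly higher in colon, whereas *Ppargc1a* was nearly 2-fold higher in small intestine and *Ppara* was higher there by a smaller ratio. These directions were the same in both protocols. Levels are given as RPKM, reads per 1000 exonic bases per 1000000 uniquely placed reads.

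*Pparg* (mm9 chr6:115311239-115440419, plus strand, 9 exon blocks) stood at 3.25 RPKM in cDNA fragmented small intestine and 64.6 RPKM in cDNA fragmented colon. In the RNA fragmented libraries it stood at 5.20 RPKM in small intestine and 45.5 RPKM in colon. Both colon libraries thus lay far above both small intestine libraries, and neither pair of intervals overlapped. The ratio of colon to small intestine was 19.9 (16.8 to 23.6) by cDNA fragmentation, from 145 and 3179 reads. By RNA fragmentation it was 8.75 (5.63 to 14.3), from 21 and 314 reads. The lower bound of the first lies above the upper bound of the second, so the size of the ratio differed between protocols beyond counting error.

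The study's rule calls a gene when the level in one tissue is at least 3-fold that in the other after 1 RPKM has been added to the divisor. *Pparg* was the only gene of the 9 that passed it, in both protocols, with penalised ratios of 15.2 and 7.34. Among all genes present in both tissues the rule called 3.26% as higher in colon and 2.82% as higher in small intestine by cDNA fragmentation, 6.09% in either direction. By RNA fragmentation it called 6.41% and 3.85%, or 10.3% in either direction. In both protocols at once, 2.17% of genes were called as higher in colon and 2.06% as higher in small intestine. One call of 9 is 1 gene, so no share can be read from it. By cDNA fragmentation 0.992% of genes with at least 20 reads in the pair had a higher ratio than *Pparg*, and by RNA fragmentation 2.97%.

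Across both protocols, tissue was tested with limma, with protocol as a second term, over 14168 genes. Library sizes in this test were scaled by factors from a trimmed mean of M values (TMM). These were 0.739 and 0.865 for cDNA fragmented small intestine and colon, and 1.109 and 1.41 for the RNA fragmented libraries. The larger colon factor in each protocol moves limma differences toward small intestine, compared with the RPKM ratios. *Pparg* was higher in colon by 3.65 on the log2 scale (SE 0.47, Benjamini-Hochberg adjusted p = 2.13e-06). *Ppargc1a* and *Ehhadh* also passed this test, both higher in small intestine. Among all genes tested, 6.99% were called as higher in colon and 6.92% as higher in small intestine. The spread in this fit is the disagreement of the tissue difference between the protocols. It rests on 1 residual degree of freedom per gene, beside 24.3 prior degrees of freedom borrowed across genes. With no protocol term no gene passed (0 calls by limma, with 781 genes at an unadjusted p under 0.05).

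The difference of *Pparg* was seen in each block with enough reads. By cDNA fragmentation 6 of its 9 exon blocks had at least 20 reads in the pair, and all 6 were higher in colon, by 14.3-fold to 35.1-fold. By RNA fragmentation 5 of 5 such blocks were higher in colon, by 3.71-fold to 21.7-fold. When each start point on the genome was counted once, the ratios were 11.3 (9.46 to 13.6) and 4.95 (2.99 to 8.73). By cDNA fragmentation 46.8% of the possible start points of *Pparg* were in use in colon and 3.96% in small intestine. This limits how far that count can rise in colon. The fullest start point held 45 of the 314 reads in RNA fragmented colon. Without the fullest start point of either library, the RNA fragmented ratio was 8.22 (5.16 to 13.9).

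*Pparg* has 2 known protein forms that are made from different first exons. Blocks 1 and 2 are the leader of PPARγ1, block 3 begins PPARγ2, the longer form known from fat cells, and blocks 4 to 9 are shared. The stretches in which translation of the forms begins are shown because the first is in PPARγ2 transcripts only, whereas the second is in those of both forms, as read from mm9 with the start codon in capitals. That of PPARγ2 lies in block 3 at chr6:115372129-115372210, and that of PPARγ1 lies in block 4 at chr6:115389866-115389947.
Pparg2 first coding stretch: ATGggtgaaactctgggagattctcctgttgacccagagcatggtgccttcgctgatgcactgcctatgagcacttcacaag
Pparg1 first coding stretch: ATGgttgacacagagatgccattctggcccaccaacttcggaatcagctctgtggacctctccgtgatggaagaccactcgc

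Block 3 had 0 reads within the exon in all 4 libraries, although all 97 words of 31 bases in it occur once in the exons. Reads placed on junctions are apart from these block counts, and 9 such reads in cDNA fragmented colon joined block 3 to block 7. They had 7 start points, 6 of the 9 had the full 3 color mismatches, and no other library had any. In cDNA fragmented colon 86.1% of all junction reads had 3 mismatches, against 18.9% of exon reads. The join leaves out the shared blocks 4 to 6. Block 4 held 15 reads in cDNA fragmented small intestine, 372 in cDNA fragmented colon, 3 in RNA fragmented small intestine and 99 in RNA fragmented colon. Blocks 1 and 2 together held 4, 22, 0 and 10 reads in the same order. In cDNA fragmented colon, block 3 would have held 203 reads at the mean density of blocks 4 to 9. A count of 0, read as up to 3 reads, allows 1.48% of that density for reads within the exon. In RNA fragmented colon a count of 0 allows 15.3%, and in cDNA fragmented small intestine 32.9%. The 9 junction reads equal 4.44% of the 203, but junction reads start at other positions, so this is no measure of the PPARγ2 share. The 21 reads of RNA fragmented small intestine are too few for any limit. Blocks 1 and 2 were also thinly covered, and the plot of *Pparg* blocks shows the drop at the 5′ end.

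**Figure D1:**
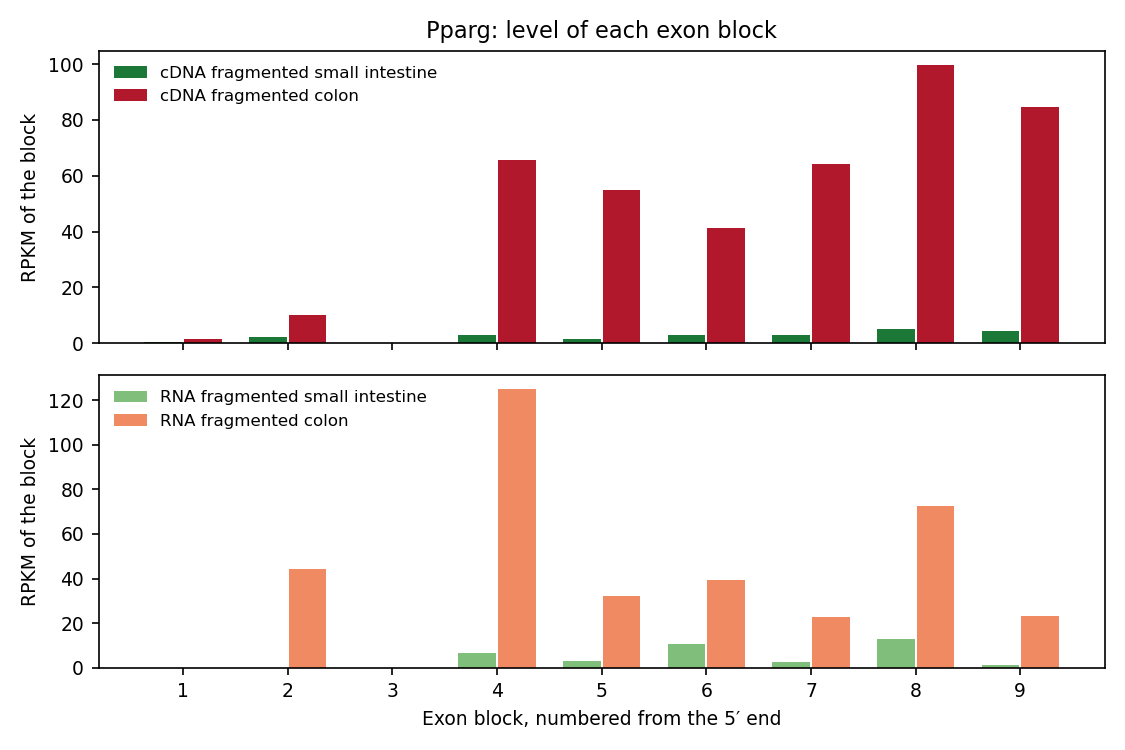
Level of each *Pparg* exon block (RPKM of the block, vertical axis from 0) against its number from the 5′ end, with the cDNA fragmented libraries above and the RNA fragmented ones below. Bars are single libraries without error bars and leave out junction reads, block 3 holds no reads within the exon in any of the 4, and from block 4 on each colon bar is above its small intestine bar.

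Genes of fat cells also had higher summed levels in colon. The 8 adipocyte markers summed to 189 RPKM in small intestine and 653 RPKM in colon by cDNA fragmentation, and to 59.5 and 219 RPKM by RNA fragmentation. None of the 8 was at 0 in any library. *Car3* and *Fabp4* gave 258.5 and 204 RPKM of the sum in cDNA fragmented colon, and *Cfd* gave 118 RPKM of that in RNA fragmented colon. In the limma test 3 of the 8 were higher in colon, namely *Adipoq*, *Cfd* and *Fabp4*, against 6.99% of all genes. *Adipoq*, which encodes the fat cell hormone adiponectin, had ratios of 4.75 and 3.45, *Fabp4* 3.75 and 2.88, and *Cfd*, also known as adipsin, 10.0 and 11.1. *Cidec*, a protein of fat droplets, had 0.861 and 1.29, and *Car3*, a carbonic anhydrase, 3.19 and 1.21, and neither passed limma (adjusted p = 0.720 and 0.148). *Plin1*, the coat protein of fat droplets, had 1, 8, 2 and 4 reads. *Retn* had ratios of 4.14 and 2.05 and *Lep* of 3.17 and 5.85, with at most 10 reads in an RNA fragmented library. Neither of these passed limma (adjusted p = 0.107 and 0.187). The 6 smooth muscle markers summed to 308 and 1280 RPKM, and to 241 and 2445 RPKM. The part of fat or muscle in the *Pparg* ratio was not tested.

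*Ppara* (chr15:85565994-85637281, plus strand) stood at 4.76 RPKM in cDNA fragmented small intestine and 3.38 RPKM in cDNA fragmented colon. In the RNA fragmented libraries it stood at 16.6 and 12.6 RPKM. Small intestine was the higher tissue each time, by 1.41-fold (1.27 to 1.57) and 1.32-fold (1.12 to 1.56), and the tissue intervals did not overlap within either protocol. The limma difference was -0.74 on the log2 scale (SE 0.38, adjusted p = 0.234) and did not pass the threshold. On the last 1000 exonic bases alone the RNA fragmented ratio lay on the other side, at 1.24 for colon over small intestine, where 6.67% of small intestine and 10.9% of colon reads fell.

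The balance between the receptors differed between the tissues. In small intestine *Ppara* was above *Pparg*, by 1.47-fold in the cDNA fragmented and 3.20-fold in the RNA fragmented library. In colon *Pparg* was above *Ppara*, by 19.1-fold and 3.62-fold. The third receptor, *Ppard*, stood at 3.07 and 4.42 RPKM by cDNA fragmentation and at 40.9 and 39.5 RPKM by RNA fragmentation. *Ppard* did not pass the limma test (adjusted p = 0.953). Its level differed far more between the protocols than between the tissues. Comparison within a library does not remove such a protocol difference. *Ppard* over *Pparg* was 0.944 in cDNA fragmented and 7.87 in RNA fragmented small intestine. In colon it was 0.0685 and 0.868. The sizes of the ratios between receptors thus depend on the protocol.

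*Ppargc1a* (chr5:51845489-51945160, minus strand) stood at 13.1 RPKM in cDNA fragmented small intestine and 7.10 RPKM in cDNA fragmented colon, and at 20.2 and 10.6 RPKM in the RNA fragmented libraries. Small intestine was higher by 1.85-fold (1.72 to 1.99) and by 1.91-fold (1.60 to 2.28), and these intervals overlap. All 12 blocks with at least 20 reads in the cDNA fragmented pair and all 5 in the RNA fragmented pair were higher in small intestine. The limma difference of colon minus small intestine was -1.19 on the log2 scale (SE 0.38, adjusted p = 0.0365). The call was lost on the last 1000 exonic bases alone (difference -1.03, adjusted p = 0.209), where the RNA fragmented ratio of colon to small intestine was 0.920 in place of 0.524. It was also lost with at most 1 color mismatch (difference -1.18, adjusted p = 0.0541) and with no filter beyond 1 read (difference -1.17, adjusted p = 0.0882).

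**Figure D2:**
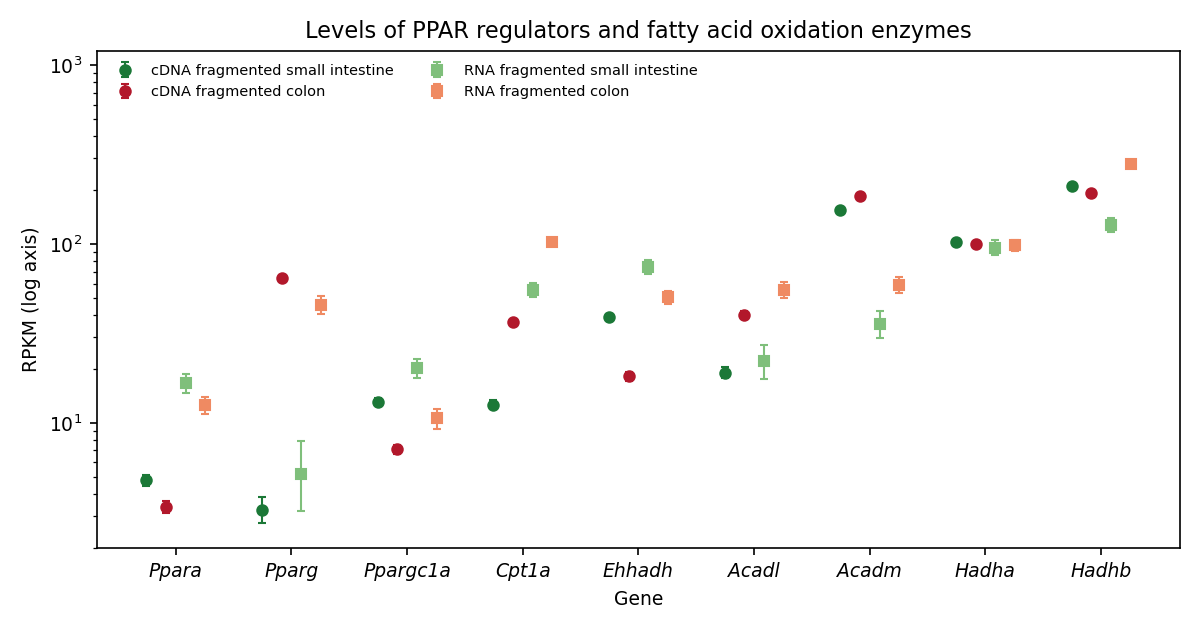
Level of the 9 genes (RPKM, log axis) in each of the 4 libraries, with circles for cDNA and squares for RNA fragmented libraries and bars for 95% counting intervals. Both colon points of *Pparg* (64.6 and 45.5 RPKM) lie far above both small intestine points (3.25 and 5.20 RPKM), whereas the *Hadha* points lie between 95.0 and 102 RPKM.

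Among the 6 enzymes, *Cpt1a* and *Acadl* had higher levels in colon in both protocols and *Ehhadh* in small intestine. *Acadm*, *Hadha* and *Hadhb* were the nearest to equal by cDNA fragmentation. None of the 6 passed the 3-fold rule in either protocol, and 1 of 6, *Ehhadh*, passed the limma test. Their summed level was 537 RPKM in small intestine and 571 RPKM in colon by cDNA fragmentation, and 410 and 644 RPKM by RNA fragmentation.

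*Cpt1a* (chr19:3323301-3385733, plus strand) encodes carnitine palmitoyltransferase 1A, which makes carnitine esters at the outer mitochondrial membrane and controls the entry of long chains. It stood at 12.6 RPKM in cDNA fragmented small intestine and 36.4 RPKM in cDNA fragmented colon, and at 55.5 and 103 RPKM in the RNA fragmented libraries. Colon was higher by 2.88-fold (2.70 to 3.07) and 1.85-fold (1.67 to 2.06). The penalised ratio by cDNA fragmentation was 2.67, which is below the 3-fold rule. All 17 blocks with at least 20 reads were higher in colon by cDNA fragmentation, and 15 of 16 by RNA fragmentation. The limma difference was 0.94 (SE 0.37, adjusted p = 0.0997) and did not pass. Its muscle relative *Cpt1b* had 1, 1, 0 and 0 reads and so gave no ratio. A single read made 0.2965 RPKM in cDNA fragmented small intestine, so only a short stretch of exon was counted under this name. The level of *Cpt1b* is therefore not known from these counts.

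*Acadl* (chr1:66877427-66909841, minus strand) and *Acadm* (chr3:153585323-153607396, minus strand) encode the acyl-CoA dehydrogenases of long and medium chains, which carry out the first step of the cycle. *Acadl* stood at 19.04 and 40.2 RPKM by cDNA fragmentation and at 22.1 and 55.5 RPKM by RNA fragmentation, small intestine before colon. Colon was higher by 2.11-fold (1.94 to 2.30) and 2.51-fold (1.98 to 3.22), and all 10 and all 7 blocks with at least 20 reads were higher in colon. The limma difference of 0.90 did not pass (SE 0.40, adjusted p = 0.144).

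*Acadm* stood at 154 and 185 RPKM by cDNA fragmentation and at 35.7 and 58.9 RPKM by RNA fragmentation. The ratio of colon to small intestine was 1.20 (1.16 to 1.24) and 1.65 (1.35 to 2.03). Its level was 4.32-fold lower by RNA than by cDNA fragmentation in small intestine and 3.13-fold lower in colon, whereas that of *Cpt1a* was 4.39-fold and 2.83-fold higher by RNA fragmentation. With start points in place of reads the cDNA fragmented ratio was 0.954 (0.899 to 1.01), an interval that includes 1. Those counts were near their ceiling, since 77.1% of the 2874 possible start points on both strands were in use in small intestine and 77.0% in colon. The limma difference was 0.17 (SE 0.38, adjusted p = 0.828).

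*Ehhadh* (chr16:21761358-21787907, minus strand) encodes the bifunctional enzyme of peroxisomes, which hydrates the chain and oxidises it again. It stood at 39.1 RPKM in cDNA fragmented small intestine and 18.2 RPKM in cDNA fragmented colon, and at 74.3 and 50.2 RPKM in the RNA fragmented libraries. Small intestine was higher by 2.15-fold (2.01 to 2.30) and 1.48-fold (1.30 to 1.68). All 7 blocks were higher in small intestine by cDNA fragmentation, and 5 of 6 by RNA fragmentation. The limma difference was -1.13 (SE 0.37, adjusted p = 0.0400). The call was lost with at most 1 color mismatch (difference -1.09, adjusted p = 0.0661) and with no filter beyond 1 read (difference -1.12, adjusted p = 0.0980).

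*Hadha* (chr5:30446585-30481520, minus strand) and *Hadhb* (chr5:30481862-30511123, plus strand) encode the α and β subunits of the mitochondrial trifunctional protein, which carries out the remaining steps of the cycle on long chains. The genes lie head to head and are transcribed away from each other. The 85 bases between their starts in GENCODE M1, which lie outside the exon blocks just given, are shown because they separate the genes, with the GC box GGGCGG in capitals, in the plus orientation of mm9 chr5:30481703-30481787.
between Hadha and Hadhb: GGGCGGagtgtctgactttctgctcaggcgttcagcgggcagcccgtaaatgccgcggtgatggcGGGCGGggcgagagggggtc

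This interval holds 2 GC boxes. Windows of equal length upstream of the RefSeq starts of GRCm38 were searched. GGGCGG on either strand was in 35.7% of 32851 windows and in 8 of the 11 windows of the 9 genes. The core motif of nuclear receptors, AGGTCA on either strand, was in 16.3% of all windows and in 4 of these 11, namely those of *Acadm*, *Cpt1a* and *Pparg*. The direct repeat of this core with 1 base between its copies, which is the textbook PPAR element, was in 13 of all windows and in 0 of these 11. These are matches of letters only.

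*Hadha* stood at 102 RPKM in cDNA fragmented small intestine, 99.9 RPKM in cDNA fragmented colon, 95.0 RPKM in RNA fragmented small intestine and 98.3 RPKM in RNA fragmented colon. The ratios of colon to small intestine were 0.975 (0.938 to 1.01) and 1.03 (0.918 to 1.17), and both intervals include 1. *Hadha* had the most even level of the 9 genes over the 4 libraries. The limma difference was -0.28 (SE 0.36, adjusted p = 0.692), with an interval from -1.03 to 0.47.

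*Hadhb* stood at 210 RPKM in cDNA fragmented small intestine, 191 RPKM in cDNA fragmented colon, 128 RPKM in RNA fragmented small intestine and 278 RPKM in RNA fragmented colon. The protocols gave opposite directions. The ratio of colon to small intestine was 0.912 (0.886 to 0.939) by cDNA and 2.18 (1.97 to 2.41) by RNA fragmentation. All 11 blocks with at least 20 reads in the RNA fragmented pair were higher in colon, whereas 14 of 15 in the cDNA fragmented pair were higher in small intestine. Beside this, a single start point held 293 of the 1883 reads of RNA fragmented colon. Without the fullest start point of either library the RNA fragmented ratio was 2.14 (1.92 to 2.38), and with each start point counted once it was 1.21 (1.01 to 1.47). The limma difference was 0.18 (SE 0.38, adjusted p = 0.815).

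The subunits form 1 complex, and the level of *Hadhb* over that of *Hadha* was 2.05 in cDNA fragmented small intestine, 1.91 in cDNA fragmented colon, 1.34 in RNA fragmented small intestine and 2.82 in RNA fragmented colon. The tissue order of this ratio was thus reversed between the protocols.

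**Figure D3:**
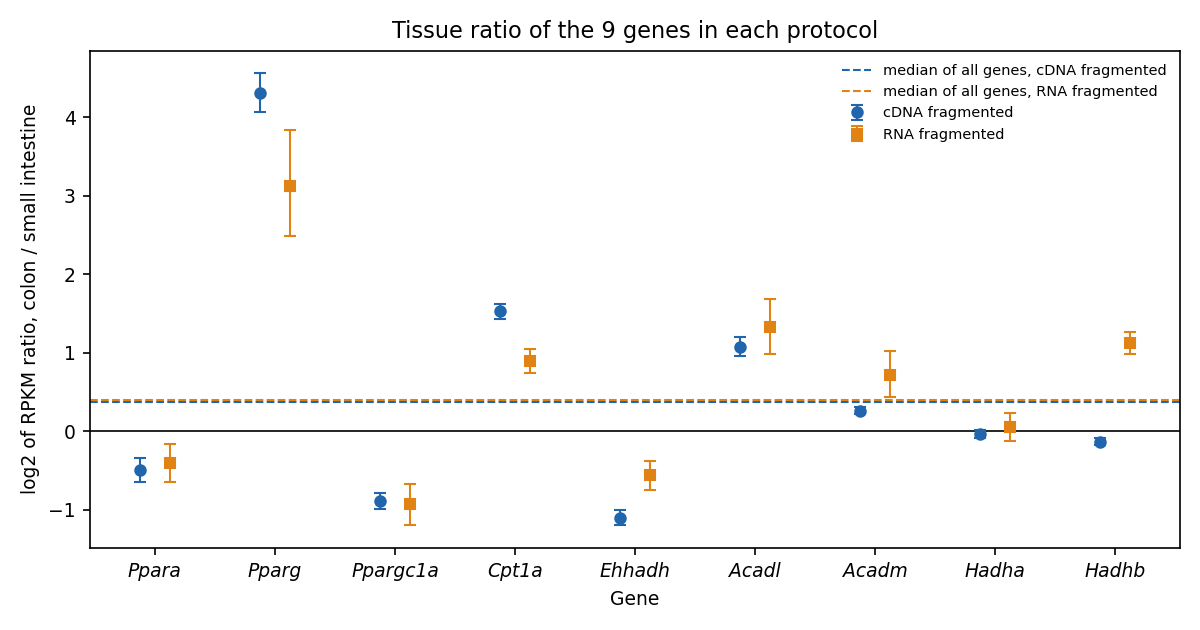
Ratio of colon to small intestine (log2 of RPKM ratio) for each of the 9 genes by cDNA (circles) and RNA fragmentation (squares), with 95% counting intervals and a dashed line at the median of all genes in each protocol. *Pparg* is the highest at 4.31 and 3.13, and *Hadhb* lies below 0 by cDNA and above it by RNA fragmentation.

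Most genes had somewhat higher RPKM in colon, and this bears on the genes near 1. Over 14215 genes with at least 20 reads in the cDNA fragmented pair the median log2 ratio, colon over small intestine, was 0.37, and over 11966 such genes of the RNA fragmented pair it was 0.40. Median-of-ratios size factors moved all log2 ratios by -0.36 and -0.29. Relative to that centre, *Acadm* turned to 0.936 by cDNA fragmentation and stayed at 1.35 by RNA fragmentation, and *Hadha* stood at 0.762 and 0.849. *Pparg*, *Cpt1a* and *Acadl* stayed higher in colon in both protocols at 15.5 and 7.18, 2.25 and 1.52, and 1.65 and 2.06. *Ppara*, *Ppargc1a* and *Ehhadh* stayed higher in small intestine, with *Hadhb* still split at 0.712 and 1.79. With these factors the 3-fold rule called more genes in small intestine than in colon, with 38.5% of its calls in colon by cDNA fragmentation (53.6% without them) and 45.4% by RNA fragmentation (62.5% without them).

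*Hadhb* had the highest level in every library, and the order below it differed. In cDNA fragmented small intestine it ran *Hadhb*, *Acadm*, *Hadha*, *Ehhadh*, *Acadl*, *Ppargc1a*, *Cpt1a*, *Ppara*, *Pparg*, and the intervals of *Ppargc1a* and *Cpt1a* overlapped. In cDNA fragmented colon *Pparg* moved from last to the fourth place, and the intervals of *Hadhb* and *Acadm* overlapped. In RNA fragmented small intestine *Hadhb* was again first and *Pparg* last, and *Acadl*, *Ppargc1a* and *Ppara* followed each other with overlapping intervals. In RNA fragmented colon *Cpt1a* was second with an interval that overlapped that of *Hadha*. There *Acadm*, *Acadl*, *Ehhadh* and *Pparg* followed each other with overlapping intervals, as did *Ppara* and *Ppargc1a*.

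Reads on the 9 genes fell on both strands by cDNA fragmentation, with 38.5% to 52.3% in sense, and almost only in sense by RNA fragmentation, with at least 99.6%. Over all genes the sense share was 48.2% to 48.3% and 98.4%. The RNA fragmented libraries also had more reads on single start points. The fullest start point held 2.27% to 22.8% of a gene's reads by RNA and 0.185% to 2.07% by cDNA fragmentation, with the highest share at *Hadha* in colon.

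**Figure D4:**
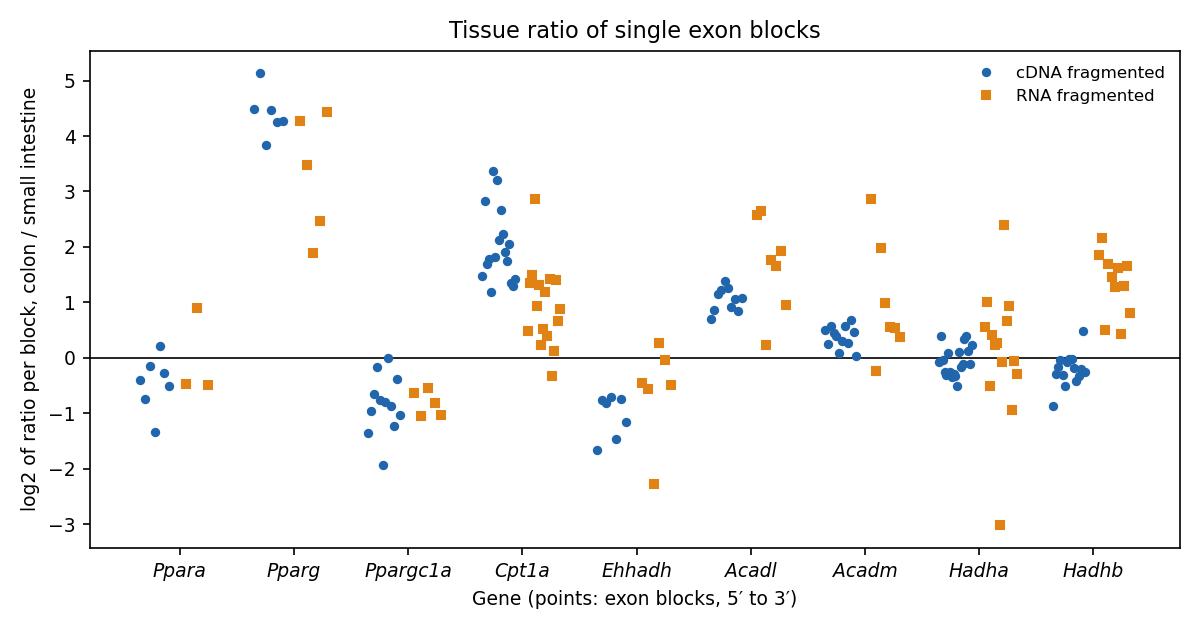
Ratio of colon to small intestine (log2) for single exon blocks with at least 20 reads in the pair and reads in both tissues, in order from the 5′ end within each gene. Circles are cDNA and squares RNA fragmented, *Pparg* blocks all lie above 0 in both protocols, and *Hadhb* blocks fall mostly below 0 by cDNA and all above it by RNA fragmentation.

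To place the 9 genes in their pathway, 6 lists with 96 other genes were examined, all of which were found. By the 3-fold rule 5 were higher in colon and 6 in small intestine in both protocols, against 2.17% and 2.06% of all genes present in both. In the limma test 86 were tested, of which 9 were higher in colon and 12 in small intestine, against 6.99% and 6.92% of all genes.

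Fatty acid activation and the carnitine shuttle, with 12 genes, held 2 genes that passed each way in both protocols and by limma. Over all genes the 3-fold rule called 2.17% as higher in colon and 2.06% in small intestine in both protocols. By limma these shares were 6.99% and 6.92%. The median log2 ratio of the list was -0.27 by cDNA and -0.29 by RNA fragmentation, below the medians of all genes. *Acsl5*, which joins fatty acids to coenzyme A, stood at 1497 and 22.6 RPKM by cDNA and at 420 and 58.3 RPKM by RNA fragmentation, 66.2-fold and 7.21-fold higher in small intestine. *Acsl3*, of the same family, was 10.1-fold and 10.7-fold higher in colon, but it shares an exon block with *Utp14b* and is uncertain. *Slc25a20*, the carrier of carnitine esters into the matrix, was 4.46-fold and 3.18-fold higher in colon. *Crot*, which makes carnitine esters in peroxisomes, was 3.17-fold and 3.48-fold higher in small intestine.

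Of the 18 other mitochondrial enzymes 1, *Acads*, passed the 3-fold rule in both protocols and the limma test. It encodes the dehydrogenase of short chains and had ratios of 5.56 and 3.31 for colon. Over all genes 2.17% passed that rule in both protocols as higher in colon and 6.99% by limma, so no share can be read from 1 gene. The median log2 ratio was 0.25 by cDNA and 0.41 by RNA fragmentation, near the medians of all genes. *Hadh*, which acts on shorter chains and had the most reads, stood at 251 and 189 RPKM and at 491 and 344 RPKM (adjusted p = 0.184 by limma). *Acaa2*, the thiolase of the matrix, stood at 195 and 235 RPKM and at 48.8 and 80.9 RPKM (adjusted p = 0.821 by limma).

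The other peroxisomal genes that passed a test were all higher in small intestine. Of 20 genes none was higher in colon by the 3-fold rule or by limma, and 5 of the 19 tested were higher in small intestine by limma, as *Ehhadh* was. Over all genes limma called 6.99% as higher in colon and 6.92% as higher in small intestine. Among the 5 were *Scp2*, *Slc27a2* and *Hsd17b4*, the last named with its values known. The median log2 ratio was -0.31 by cDNA and -1.10 by RNA fragmentation. *Scp2*, whose products are a thiolase and a lipid carrier, was 2.68-fold and 2.59-fold higher in small intestine. *Slc27a2*, which activates very long chains, passed the 3-fold rule in both protocols with 5.73-fold and 17.9-fold.

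Genes of omega-oxidation in microsomes had few uniquely placed reads apart from *Aldh3a2*. Of 7 genes *Aldh3a2* alone was present in both tissues, at 48.8 and 42.3 RPKM and at 77.0 and 105 RPKM. The 6 *Cyp4a* genes had at most 5 such reads in any library, and *Cyp4a10*, a known PPARα target in liver, had 5, 1, 1 and 0. How much of their sequence occurs only once in the exons was not checked, so these counts need not mean low levels.

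Of 24 PPAR partners, coregulators and energy sensors, none passed the 3-fold rule by cDNA fragmentation and 1 by RNA fragmentation, *Prkaa2*, higher in colon. Over all genes 6.09% and 10.3% passed that rule in either direction. In the limma test 2 were higher in colon, *Prkaa2*, a catalytic subunit of the energy sensor AMPK, and *Acacb*, which makes the malonyl-CoA that inhibits *Cpt1a*. Both are named with their values known, beside 6.99% of all genes called as higher in colon by limma. *Prkaa2* had ratios of 3.76 and 4.54, and *Acacb* of 6.84 and 2.81 from at most 196 reads in a library. *Lpin2* and *Med1*, which had the most reads of the list, did not pass limma (adjusted p = 0.376 and 0.116). The list's median log2 ratio was 0.43 by cDNA and -0.25 by RNA fragmentation, of opposite sign.

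Of the 15 other known targets of PPARs 13 were tested by limma, and 4 were higher in colon and 5 in small intestine, against 6.99% and 6.92% of all genes. The median log2 ratio of the list was 0.43 by cDNA and 0.055 by RNA fragmentation, beside 0.37 and 0.40 over all genes. *Mgll*, which splits monoglycerides, had ratios of 5.97 and 7.38 for colon, and *Plin2* and *Txnip* were also higher in colon by limma, all 3 named with their values known. *Fabp1*, a carrier of fatty acids in enterocytes, stood at 13459 and 4.75 RPKM and at 600 and 5.26 RPKM. *Vnn1*, which splits pantetheine, was 39.0-fold and 16.4-fold higher in small intestine, and *Creb3l3*, a transcription factor that acts with PPARα, 16.0-fold and 26.7-fold. *Angptl4* and *Cd36* were also higher in small intestine by limma. The plot of the lists shows these genes beside the 9 members.

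**Figure D5:**
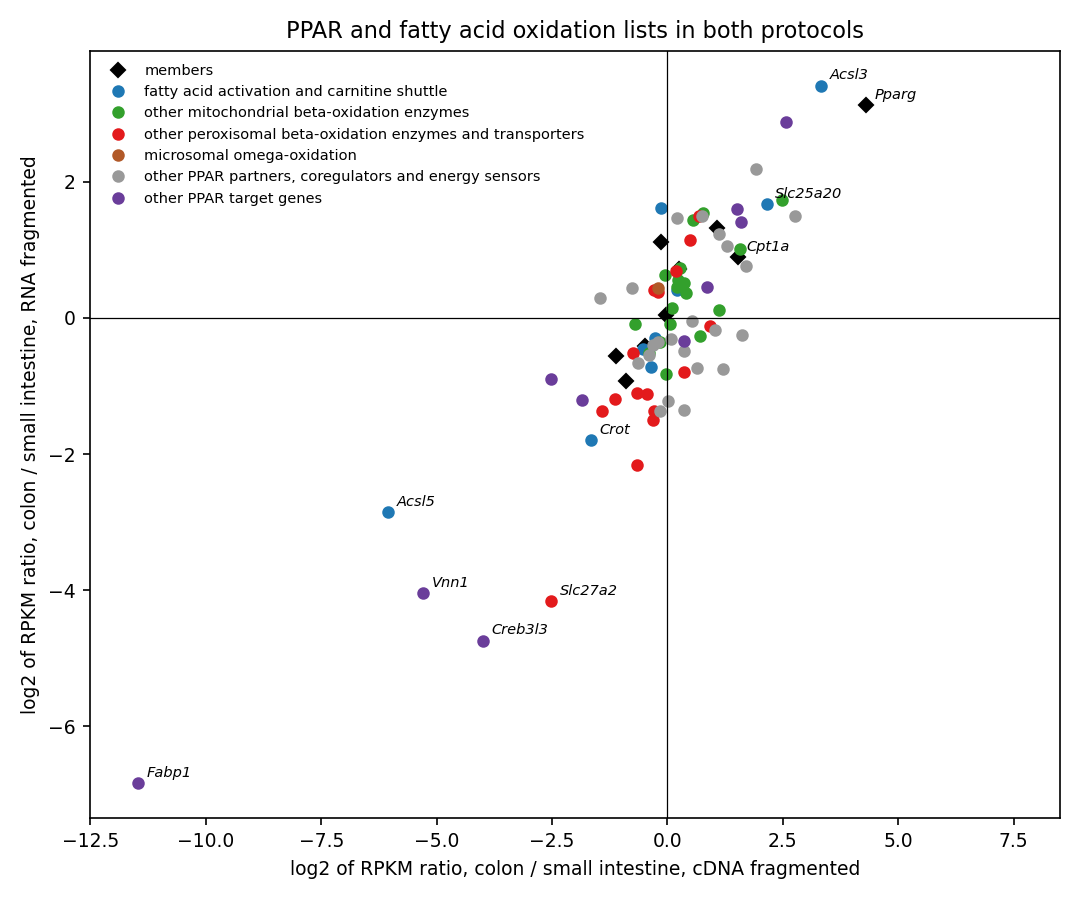
Log2 ratio of colon to small intestine by cDNA (horizontal) against RNA fragmentation (vertical) for 86 genes of the lists with at least 20 reads in each pair and reads in all 4 libraries, each point a gene and diamonds the 9 members. *Fabp1* and *Acsl5* lie at the lower left, *Acsl3* at the upper right, and *Pparg* is the member farthest from 0.

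Summed levels of markers of other cell types differed between libraries too. Of the 6 pancreatic acinar markers, *Amy2a5* was at 0 in all 4 libraries, and the list summed to 18.5 and 974 RPKM by cDNA and to 2501 and 298 RPKM by RNA fragmentation, so its direction was opposite in the protocols. Whether *Amy2a5* can hold uniquely placed reads was not checked, so its count of 0 need not mean absence. *Cela1* alone gave 18.3 RPKM of the first sum and 293 RPKM of the last. The 4 hepatocyte markers summed to 5.39 and 93.5 RPKM and to 2.08 and 27.0 RPKM. Nearly all of these sums came from *Ttr*, at 68.9 RPKM in cDNA fragmented colon, and *Tat*, at 24.2 RPKM there, whereas *Alb*, the defining gene of hepatocytes, had 2, 17, 0 and 3 reads. Leukocyte markers summed to 66.1 and 26.9 RPKM and to 31.3 and 32.9 RPKM. The 4 skeletal muscle markers summed to 15.3 and 21.7 RPKM and to 6.21 and 17.5 RPKM, with *Myh4* at 0 throughout. Their part in the ratios of the 9 genes was not tested.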

How the data were processed

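The authors deposited, per the file headers, single SOLiD reads with position, strand and color mismatches, in no normalized unit, and tables of RefSeq exons and junctions of mm9. They had matched 35 colors with up to 3 mismatches and kept unique placements, without introns. Zero-mismatch reads were checked against mm9, and all 5000 checked per library were equal to it.

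Reads were counted on condensed genes by the exon holding their start (3 bases of tolerance). Junction reads (0.750% to 0.817%) were counted by the exon at the lower genome position, whatever the strand of the gene. Names came from GENCODE M1. Genes were present above 0.01 RPKM with 2 start points. In place of the intended negative binomial model, which was not run, genes were tested with limma 3.58.1 (voom, TMM) in R 4.3.3, with tissue and protocol as terms and a threshold of 0.05. No other column of samples was left out. Intervals are exact binomial or Poisson at 95%, and a count of 0 was read as up to 3. Python 3.11.15 was used. The procedures were tested on simulated data.

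All 9 genes were named. From each list the 2 genes with the most reads were named, with up to 4 past the 3-fold rule in both protocols. Further genes are named as chosen with values known, and some genes of the lists are not reported here. Members and lists were chosen with earlier results of these data known. Labels do not say which mice gave which library. The authors describe tissues of the same individuals, which the sex-linked reads of the cDNA fragmented pair go against. Libraries were therefore not paired by mouse. The p-values rest on how far the tissue difference varied between the protocols, with most of that spread borrowed across genes. They do not measure the spread between mice.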

Additional observations from a re-analysis of the deposited data

Results flagged for a closer look

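*Hadhb* and *Hadha* had opposite directions in the protocols, by the size of their single ratios. For *Hadhb* the log2 ratio of colon to small intestine was -0.13 by cDNA and 1.12 by RNA fragmentation, with counting intervals that do not overlap. For *Hadha* it was -0.036 by cDNA and 0.050 by RNA fragmentation, and both intervals include 0. With 1 library per tissue and protocol the difference between the protocols was not tested. Protocol, RNA selection and mice cannot be told apart here.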

How the results depend on the processing

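*Pparg* passed the 3-fold rule in both protocols under every alternative tried, and no other of the 9 genes did. Of these alternatives, leaving out *Lars2* reads or each library's fullest start point was chosen after seeing the data. Over all genes the rule called 1164 in place of 494 as higher in colon by cDNA fragmentation with a penalty of 0.1 RPKM. By RNA fragmentation that penalty gave 1492 in place of 841 for colon and 791 in place of 505 for small intestine, and median-of-ratios size factors gave 552 for colon. In the limma test, which called 1971 genes and 3 of the 9, *Pparg* was also called with other size factors, start points, fewer mismatches, the last 1000 exonic bases and no filter. With no filter beyond 1 read 1283 genes and 1 of the 9 were called. With at most 1 color mismatch 1 of the 9 was called. In these 2 settings *Ppargc1a* had log2 differences of -1.17 and -1.18 with an adjusted p of 0.0882 and 0.0541. *Ehhadh* had -1.12 and -1.09 with 0.0980 and 0.0661. Signs turned for *Acadm* at -0.20 and *Hadhb* at -0.26 with start points, and for *Acadm* at -0.067 on the last 1000 bases, none of which passed. By cDNA fragmentation at least 77.0% of the possible start points of both genes were in use in each tissue. This limits how far the cDNA fragmented counts could differ. For *Hadhb* the cDNA fragmented ratio was 0.9119 with reads and 0.8885 with start points. Its RNA fragmented ratio was 2.178 with reads and 1.213 with start points. In that pair 12.03% of its possible start points were in use in small intestine and 24.98% in colon. The cause of the turned signs was not tested. Each group holds 1 library, so no replicate numbers pair them, and the tissues were paired by protocol as the block. Without that block limma called 0 genes and 0 of the 9, with *Pparg* at a log2 difference of 3.40 in place of 3.65 and an adjusted p of 0.430 (781 genes at an unadjusted p under 0.05). Leaving out 1 library, also with no protocol term, gave 54 to 188 calls and 0 of the 9, where the lone library is assumed to vary like the other tissue. *Pparg* then had log2 differences of 2.88 to 3.93 and an adjusted p of 1 without cDNA fragmented small intestine, 0.921 without cDNA fragmented colon, 0.671 without RNA fragmented small intestine and 0.980 without RNA fragmented colon. Log2 differences ran from -1.37 to 1.55 for *Acadm*, -0.76 to 0.085 for *Hadha* and -0.54 to 0.84 for *Hadhb*. The cause of these changes was not tested. Of 216 alternative values of single genes 152 kept their direction and side of the threshold or stayed within their counting interval. Fits with a negative binomial model, intended as the first choice and as an alternative, were not run, and limma took their place on the reads counted here. With 21 reads in RNA fragmented small intestine, depth limits the *Pparg* ratio of that pair.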
